A study of Mus musculus with 12 samples.

Results

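The genes described here are Nfil3, also named E4bp4, and Dbp, Tef and Hlf, whose products compete with it for the same DNA sites. A transcript cluster, the array's unit of measurement, was taken for a gene when the platform annotation named that gene and no other. Each of the 4 genes had exactly 1 such transcript cluster, so these are 4 of the 34760 in the table, and all 4 were among the 29541 that passed the filter on low values. The study compared lineage-depleted bone marrow of 6 E4bp4-/- mice with that of 6 E4bp4+/+ mice on GeneChip Mouse Gene 1.0 ST arrays, 1 mouse per array. Marrow came from crushed hindleg bones, and magnetic depletion in both genotypes took out erythroid cells by Ter119, myeloid cells by GR1 and CD11b, and lymphoid cells by B220, CD2 and NK1.1. The mice received no treatment that the labels name. Their strain, age, the hour of sampling and the part of E4bp4 that was deleted are not given in the sources used here. By its title and design the comparison is about genes under the control of E4bp4 in marrow.

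Nfil3 is a basic leucine zipper (bZIP) protein that mostly represses transcription from D-boxes, short DNA sites near clock and metabolic genes, and is needed for natural killer cells and other innate lymphoid cells to form. Dbp, Tef and Hlf are the PAR bZIP factors, named for a domain rich in proline and acidic residues; they bind the same sites and activate. In many tissues Dbp is transcribed with a strong daily rhythm driven by the clock through E-boxes, and Rev-erb alpha, the product of Nr1d1, holds Nfil3 down at certain hours. In marrow, Hlf is best known as a gene of haematopoietic stem cells.

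The sites through which these factors meet are shown first, because D-boxes and E-boxes are what links these factors to the clock and output genes compared below. RefSeq promoter windows of build GRCm38.p6, from 250 bases before to 50 after a gene start, were searched on both strands for the D-box letters TTATGTAA and TTACGTAA, for the related letters TTATGCAA and for the E-box CACGTG. All 4 genes had windows, 5 in all, since Tef has 2. In the windows below, lower case is sequence without a match and capitals mark the matched letters: D-boxes in Per3, the related site and an E-box in Per1, and an E-box in each window of Tef. The windows are chr4:151044616-151044915 on the minus strand for Per3, chr11:69098699-69098998 on the plus strand for Per1, and chr15:81802423-81802722 and chr15:81811164-81811463 on the plus strand for Tef. Another window of Per1, chr11:69099902-69100201 on the plus strand, held no match and is not shown.
Per3: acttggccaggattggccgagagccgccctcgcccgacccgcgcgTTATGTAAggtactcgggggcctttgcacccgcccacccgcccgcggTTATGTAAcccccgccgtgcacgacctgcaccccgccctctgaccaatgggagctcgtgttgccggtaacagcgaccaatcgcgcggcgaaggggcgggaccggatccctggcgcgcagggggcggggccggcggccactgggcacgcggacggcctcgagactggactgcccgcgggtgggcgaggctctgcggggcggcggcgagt
Per1: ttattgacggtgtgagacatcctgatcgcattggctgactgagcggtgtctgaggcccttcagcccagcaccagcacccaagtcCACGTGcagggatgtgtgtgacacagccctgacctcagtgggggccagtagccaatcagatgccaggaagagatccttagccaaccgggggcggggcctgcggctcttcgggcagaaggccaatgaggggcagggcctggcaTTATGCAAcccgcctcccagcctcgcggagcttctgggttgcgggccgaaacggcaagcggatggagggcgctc
Tef, first window: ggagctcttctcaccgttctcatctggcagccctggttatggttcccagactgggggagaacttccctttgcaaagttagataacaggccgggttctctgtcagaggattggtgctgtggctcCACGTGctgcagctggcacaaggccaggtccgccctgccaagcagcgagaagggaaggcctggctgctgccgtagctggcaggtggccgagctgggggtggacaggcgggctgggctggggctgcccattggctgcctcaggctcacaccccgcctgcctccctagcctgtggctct
Tef, second window: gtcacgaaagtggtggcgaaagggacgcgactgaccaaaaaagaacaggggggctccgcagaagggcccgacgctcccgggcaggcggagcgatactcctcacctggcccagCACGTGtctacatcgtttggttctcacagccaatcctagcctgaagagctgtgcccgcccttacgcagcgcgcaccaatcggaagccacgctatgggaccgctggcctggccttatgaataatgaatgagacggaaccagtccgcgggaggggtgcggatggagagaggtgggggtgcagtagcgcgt

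TTATGTAA was found in 0.938% of all 32851 windows, and in the Per3 window it occurred at -205 and -158, counted in bases from the gene start. TTACGTAA was in 0.119% of all windows and TTATGCAA in 0.743%. CACGTG was in 7.15% of all windows. None of the 5 windows of Nfil3, Dbp, Tef and Hlf held any of the 3 D-box forms searched, and both Tef windows held CACGTG, at -127 and -138. The windows of Nfil3, Dbp and Hlf held no CACGTG. Among core clock genes, 13 of 18 had a window, 20 windows in all, of which 1 held TTATGTAA (Per3), 1 held TTATGCAA (Per1, at -24), 0 held TTACGTAA and 4 held CACGTG (20%). Among D-box output genes, 12 of 14 had a window, 14 windows in all: 1 held TTATGTAA (7.14%, Per3), 0 held TTACGTAA, 3 held TTATGCAA (21.4%, Per1, Cyp2a5 and Cyp2b10) and 5 held CACGTG (35.7%). A match here is a stretch of letters and not a measured binding site.

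The 12 arrays had median log2 levels between 6.5 and 6.62, and the 20th percentile of each array, used here as a guide to background, from 4.93 to 4.99. Of genes for the depleted surface markers, Klrb1c, the gene of NK1.1, lay below that percentile on all 12 arrays. Cd2, at 5.01 to 5.40, and Itgam, the gene of CD11b, at 6.81 to 8.93, lay above it on all 12. Ly6g, a gene of GR1, at 4.74 to 6.55, lay above it on 6. No undepleted sample was analysed here to compare them with. The 5 erythroid markers measured averaged 10.76 to 11.43, while Kit and Cd34, genes of stem and progenitor cells, were at 10.93 to 11.38 and 11.19 to 11.96. Knockout replicate 1 stood apart: its list of 8 neutrophil and monocyte markers averaged 9.76, against 6.69 to 8.12 on the other 11 arrays, and its Xist level was 6.08, against 12.10 to 12.65. Differences are given as knockout minus wild type in log2 units, with the standard error of the limma fit. In limma with Benjamini-Hochberg adjustment 0 of 29541 transcript clusters passed an adjusted p of 0.05 (0%), and 4391 (14.9%) had an unadjusted p under 0.05. Without knockout replicate 1 the first count was 4, and it was 1 without knockout replicate 2 and 1 without wild type replicate 2.

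Nfil3 was lower on every knockout array than on any wild type array. The wild type arrays read 7.66, 7.18, 7.10, 7.11, 6.94 and 7.05 for replicates 1 to 6, and the knockout arrays 6.38, 6.92, 6.34, 6.37, 6.57 and 6.37. Knockout replicate 2 was thus far nearer to wild type than the other knockout arrays, only 0.02 below wild type replicate 5. The difference was -0.68 ± 0.13, a 1.61-fold lower level with a 95% interval of 1.33 to 1.94 fold. A two-sided exact permutation test over the 12 arrays gave p = 0.00216, which is also the lower limit of that test with 6 against 6. The limma adjusted p over all transcript clusters was 0.14, with 6 of 6 knockout arrays lower, so Nfil3 missed the threshold there. Its p-value was the 24th lowest of 29541, the 13th among the 13041 lower in the knockout, and 43rd by size of decrease. Of all transcript clusters tested 1.27% had genotypes that did not overlap, and 0.65% did so with the knockout lower.

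The knockout arrays did not fall to the 20th percentile: the lowest of all 12 Nfil3 values was still 1.35 above that of its array. Nfil3 exceeded the median of the array on 8 of the 12. Its knockout median of 6.38 was below every array median (6.5 to 6.62). A level above the 20th percentile does not by itself show that transcript was made. Without knowing which part of the gene was deleted, the table cannot tell probes outside a deletion from transcript still made. In these bulk samples, fewer Nfil3-expressing cells and less Nfil3 RNA per cell cannot be told apart either. On knockout replicate 2 the list of B cell markers, 7 of 8 measured, averaged 6.74, the highest of the 12 arrays. Next came knockout replicate 1 at 6.69, where Nfil3 was at 6.38, and the remaining arrays were at 6.27 to 6.54. The role of the cells of knockout replicate 2 in its Nfil3 value was not tested. Without that array the difference of Nfil3 was -0.77, and without wild type replicate 1, the highest wild type array, it was -0.59.

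Within each genotype Nfil3 varied more than most genes. Its residual standard deviation, the spread of arrays around their genotype means, was 0.24, larger than that of 83.3% of the transcript clusters tested. The values were 0.0806 for Dbp, 0.0765 for Tef and 0.149 for Hlf, larger than those of 22.7%, 19.1% and 67.7%. Dbp and Tef were thus among the steadier genes from mouse to mouse, and their differences had the smaller standard errors. For Nfil3, 1 array of each genotype lay far from the others. Wild type replicate 1 was at 7.66 against 6.94 to 7.18, and knockout replicate 2 at 6.92 against 6.34 to 6.57. The spread of Nfil3 without these arrays was not computed.

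**Figure D1:**
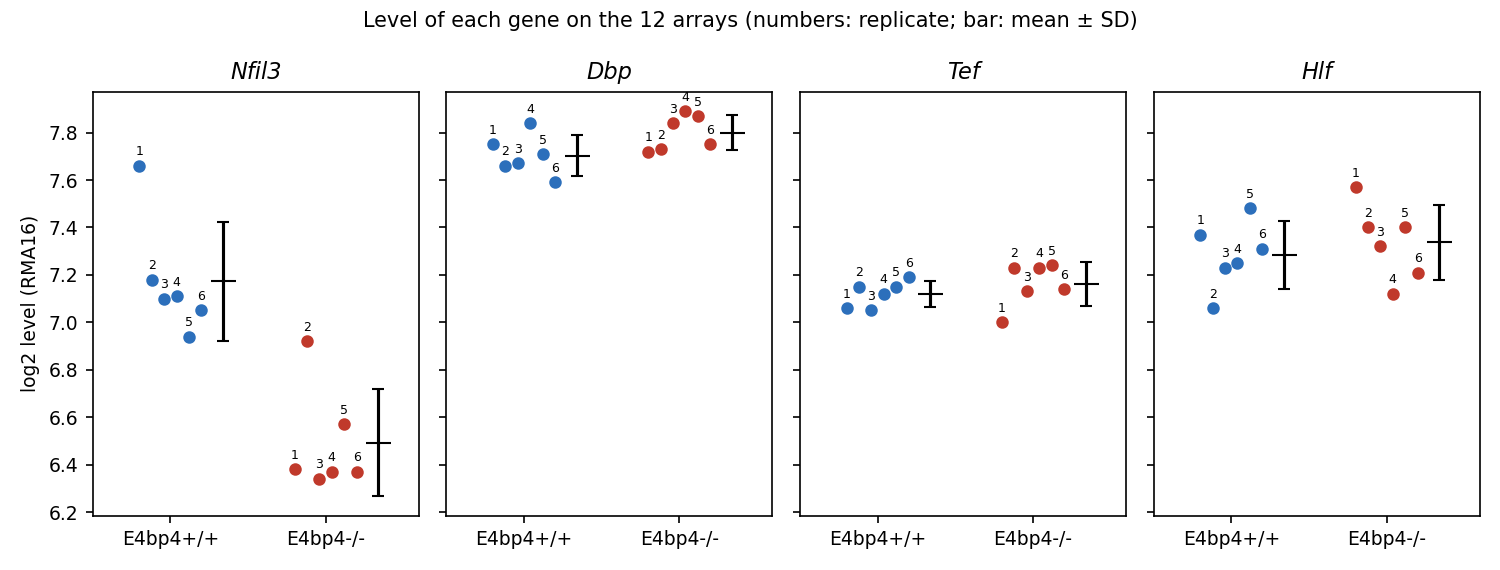
Log2 level of Nfil3, Dbp, Tef and Hlf on each of the 12 arrays, with E4bp4+/+ on the left and E4bp4-/- on the right of each panel; points are arrays numbered by replicate, and bars give the mean ± SD of 6 arrays. Nfil3 separates the genotypes, from 6.34 to 6.92 in the knockout and 6.94 to 7.66 in the wild type, while the genotypes overlap for the other genes; levels of different genes are not comparable on this axis.

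Dbp, the PAR bZIP factor most tightly tied to the clock, was at 7.72 at the lowest, 7.80 at the median and 7.89 at the highest knockout array. The wild type arrays read 7.59, 7.69 and 7.84 in the same order. The genotypes overlapped, with all 6 knockout arrays above the wild type median and 3 above every wild type array. The mean was 7.80 ± 0.075 (SD, n = 6) without E4bp4 and 7.70 ± 0.086 with it. The difference of 0.10 ± 0.050 had a 95% interval of -0.01 to 0.20, or 0.992 to 1.15 fold. It did not pass: the limma adjusted p was 0.383 and the two-sided exact permutation p 0.0628. With each array centred on its median the difference was 0.06.

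Tef, first described as a factor of the embryonic pituitary and broadly expressed, showed no difference that passed a test. Its knockout arrays lay between 7.0 and 7.24 with a median of 7.19, and its wild type arrays between 7.05 and 7.19 with a median of 7.13. Knockout replicate 1 was the lowest of the 12 arrays, and 3 knockout arrays lay above every wild type array. The difference was 0.04 ± 0.048, with a 95% interval of -0.06 to 0.15 and thus of 0.958 to 1.11 fold. The limma adjusted p was 0.702 and the two-sided exact permutation p 0.351. Over the alternatives the difference lay between 0.0025, with arrays centred on their medians, and 0.08, without knockout replicate 1.

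Hlf, the stem cell gene among the PAR bZIP factors, spread widest of these activators within each genotype. It ran from 7.12 to 7.57 in the knockout, with a median of 7.36, and from 7.06 to 7.48 in the wild type, with a median of 7.28. The genotypes overlapped over nearly their whole range; knockout replicate 1 alone lay above every wild type array. The difference of 0.05 ± 0.082 had a 95% interval of -0.13 to 0.23, or 0.915 to 1.17 fold, a limma adjusted p of 0.802 and a two-sided exact permutation p of 0.574. Without knockout replicate 1, the array with the high neutrophil and monocyte markers, it was 0.0038, without wild type replicate 2 it was 0.0065, and with arrays centred on their medians 0.01. It was 0.09 without knockout replicate 4 or wild type replicate 5 and 0.08 without knockout replicate 6.

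Of these 4 genes the genotypes separated at Nfil3 alone. Dbp, Tef and Hlf had higher means in the knockout, as had 55.9% of all transcript clusters, and the upper 95% bounds of their differences were 1.15, 1.11 and 1.17 fold. Whether the difference of Nfil3 differs from those of the activators was not tested. As a description of the balance of repressor and activators, the Nfil3 level minus the mean of Dbp, Tef and Hlf was taken on each array. This quantity has no meaning of its own on a probe scale, and only its change between arrays can be read. It averaged -0.94 ± 0.21 (SD) over the knockout arrays and -0.19 ± 0.26 over the others. Its range was -1.09 to -0.53 in the knockout and -0.51 to 0.27 in the wild type. Since it contains the Nfil3 values, its gap between genotypes largely repeats that of Nfil3 and is no second observation. The same holds for knockout replicate 2 and wild type replicate 5 being neighbours.

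Whether the 4 genes vary together from mouse to mouse was examined next, and 0 relations passed. Correlations were computed on values centred on the genotype means over 12 arrays, for the 6 pairs of these genes and for Dbp with 7 clock genes, 13 relations in all. Over the 6 pairs Pearson's r ran from -0.35 for Tef and Hlf to 0.18 for Dbp and Tef, and Spearman's rho from -0.22 to 0.09. Two-sided permutation p-values from 100000 resamples within genotype were 0.319 to 0.985 for r and 0.517 to 0.976 for rho, and adjusted over the 13 relations they were at least 0.856 and 0.931. For Tef and Hlf r was -0.01 without the 2 arrays farthest in Tef, knockout replicate 1 and wild type replicate 3. For Nfil3 and Dbp, the pair of repressor and clock output, r was -0.01 and rho 0.06. Within the knockout and the wild type, 6 arrays each, r differed in sign for Nfil3 and Dbp (-0.33 and 0.24), Nfil3 and Tef (0.49 and -0.57), Dbp and Tef (0.54 and -0.36), Dbp and Hlf (-0.54 and 0.19) and Tef and Hlf (-0.55 and 0.02), so the pooled values average unlike ones; whether they differ was not tested.

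Dbp was closest to Nr1d1, the gene of Rev-erb alpha, among the clock genes it was compared with. For this pair r was 0.68 (permutation p = 0.0261, adjusted 0.339) and rho 0.73 (p = 0.0158, adjusted 0.206), so it did not pass over the family. It was 0.73 without wild type replicate 4 and knockout replicate 4, the 2 arrays farthest in Dbp, and 0.86 within the knockout and 0.50 within the wild type. With single arrays left out r ran from 0.56 to 0.83. Without wild type replicate 4 it was 0.83 with an adjusted permutation p of 0.04, without knockout replicate 4 it was 0.60 (0.937) and without wild type replicate 6 it was 0.56 (0.843). Both genes were highest on knockout replicates 4 and 5 and lowest on wild type replicate 6, and both values of each point come from the same array.

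For Dbp and Per2, a clock repressor, r was 0.48 and rho 0.55 (permutation p = 0.134 and 0.0809, adjusted 0.856 and 0.526), and r was 0.39 without the same 2 arrays. For the other relations of Dbp the pooled r was 0.34 for Nr1d2, 0.27 for Per1, 0.10 for Arntl, -0.02 for Per3 and -0.31 for Ciart. Within the knockout and the wild type these were 0.31 and 0.40 for Nr1d2, 0.69 and 0.12 for Per1, 0.65 and -0.16 for Arntl, -0.36 and 0.45 for Per3, and -0.75 and 0.46 for Ciart. The last 3 pooled values thus average relations of opposite sign, a difference that was not tested, and for Per2 r was 0.77 and 0.20. The pooled rho values were 0.22, 0.24, 0.12, -0.15 and -0.31. Their permutation p-values were 0.291 to 0.951 for r and 0.345 to 0.728 for rho, adjusted at least 0.856 and 0.931.

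**Figure D2:**
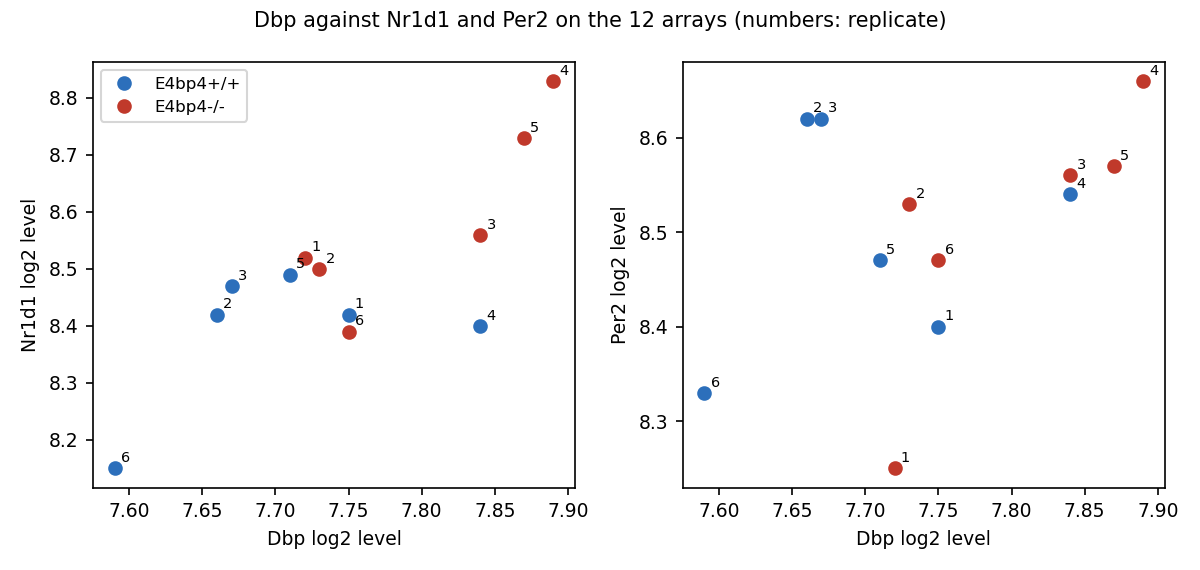
Log2 level of Dbp (x axis) against that of Nr1d1 (left) and Per2 (right); each point is 1 of the 12 arrays, coloured by genotype and numbered by replicate. Nr1d1 runs with Dbp from wild type replicate 6 (7.59 and 8.15) to knockout replicate 4 (7.89 and 8.83), and Per2 scatters more.

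The core clock genes, which drive Dbp and are in part driven by it, held no call at the adjusted threshold. Of 18 listed, 14 were tested, and 0 passed the adjusted threshold in either direction. At an unadjusted p under 0.05 there was 1, higher (7.14%, against 8.47% of all transcript clusters higher and 14.9% in either direction). The median difference was 0.02, beside 0.015 over all tested, and 8 were higher and 6 lower, or 5 and 9 with arrays centred on their medians. The count of 1 was 0 without knockout replicate 4 or 5 or wild type replicate 6 and with arrays centred on their medians. It was 2 without knockout replicate 1 or 2 or wild type replicate 1 or 3, and 3 without knockout replicate 6 or wild type replicate 2. Bhlhe41 was removed by the filter, and the others not tested were not analysed here.

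Nr1d1 was the gene with that unadjusted p. Its knockout arrays ran from 8.39 to 8.83 with a median of 8.54 and its wild type arrays from 8.15 to 8.49 with a median of 8.42, so the genotypes overlapped. The difference was 0.20 ± 0.078, with a limma adjusted p of 0.284 and a two-sided exact permutation p of 0.0238. Its unadjusted limma p was 0.0266, but 0.0736 with arrays centred on their medians and 0.0607 to 0.0612 when any 1 of wild type replicate 6 and knockout replicates 4 and 5 was left out. Its paralogue Nr1d2 differed by 0.12 ± 0.067 and Csnk1e, a kinase that marks PER proteins for degradation, by 0.13 ± 0.069, with limma adjusted p-values of 0.441 and 0.402. Without knockout replicate 1 the Csnk1e difference was 0.07, and with arrays centred on their medians that of Nr1d2 was 0.07. Per1, a clock repressor that also responds quickly to stress and glucocorticoids, differed by 0.36 ± 0.18 with a limma adjusted p of 0.384. Its wild type arrays were uneven, with replicates 1 to 3 at 10.59 to 10.64 and replicates 4 to 6 at 10.16, 9.69 and 9.72, against 10.24 to 10.82 in the knockout. Per2, Per3 and Arntl, the gene of BMAL1, differed by 0.01 ± 0.072, 0.03 ± 0.076 and 0.00 ± 0.076, and the signs of these 3 turned under some alternatives. Ciart, a repressor of CLOCK and BMAL1, differed by 0.14 ± 0.097, or 0.07 without knockout replicate 1. The Per3 window held 2 D-box matches, and the 95% interval of the Per3 difference was -0.13 to 0.20. A relation between matches and differences was not tested.

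Output genes known to be served through D-boxes were compared next. Of 14 listed, 11 were tested, and 6 of these also stand in the clock list. None passed the adjusted threshold, and the median difference was 0.04. At an unadjusted p under 0.05 there was 1, Nr1d1, higher (9.09%, against 8.47% of all transcript clusters higher and 14.9% in either direction). The count of 1 was 0 with arrays centred on their medians and without knockout replicate 4 or 5 or wild type replicate 6. It was 3 without knockout replicate 2 or wild type replicate 1 or 2, and 2 without knockout replicate 6 or wild type replicate 3. There were 9 higher and 2 lower, or 5 and 6 with arrays centred on their medians, so no direction is drawn from the split. Pdxk, the kinase that makes active vitamin B6 and a known PAR bZIP target in liver and brain, had a mean of 9.04 in the knockout against 8.88. Its difference of 0.16 ± 0.077 had a limma adjusted p of 0.34. Rora, an activator of Arntl, differed by -0.12 ± 0.089, or -0.04 without wild type replicate 5, its highest array at 6.22. Alas1, the first enzyme of haem synthesis outside red cells, differed by 0.04 ± 0.20.

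**Figure D3:**
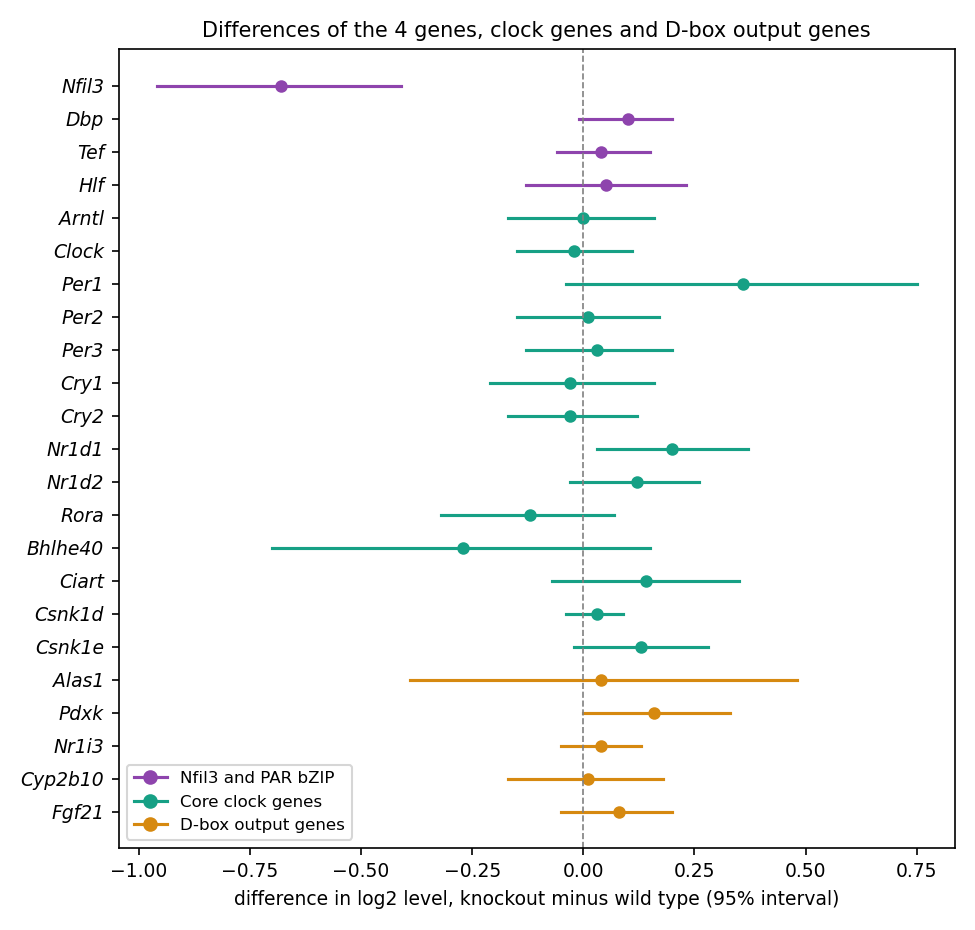
Difference in log2 level, knockout minus wild type, of the 4 genes (purple), the tested core clock genes (green) and the tested D-box output genes outside that list (orange); points are limma estimates and lines their 95% intervals. Of the genes drawn, Nfil3 (-0.96 to -0.41) and Nr1d1 (0.03 to 0.37) have intervals clear of 0, with no adjustment for the number of genes.

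Among genes tied to E4bp4 in lymphoid and myeloid cells, the larger differences were those of Id2 and Gata3. Of 14 listed, 13 were tested, and 0 passed the adjusted threshold. At an unadjusted p under 0.05 there were 3, all lower (23.1%, against 6.39% of all transcript clusters lower and 14.9% in either direction). By sign 7 were higher and 6 lower, or 4 and 9 with arrays centred on their medians. Differences ran from -0.77 to 0.18, with a median of 0.01. This list was written with earlier results of these data known, so its count is a description. Gata3, which directs T helper and innate lymphoid fates, differed by -0.64 ± 0.13 and Id2, an inhibitor of E proteins needed for innate lymphoid cells, by -0.77 ± 0.28.

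Gata3 ran from 6.16 to 6.97 in the knockout and from 6.76 to 7.31 in the wild type, and its highest knockout array was replicate 2, as for Nfil3. Id2 was at 9.19 and 8.72 on knockout replicates 1 and 2 and at 7.52 to 7.72 on the others, against 8.50 to 9.32 in the wild type. Ccl5, a chemokine of cytotoxic lymphocytes, differed by -0.23 ± 0.058, at 6.89 to 7.11 against 6.99 to 7.31. The limma adjusted p-values of Gata3, Id2 and Ccl5 were 0.148, 0.255 and 0.178, and their two-sided exact permutation p-values 0.00649, 0.0411 and 0.00649. Il10, an anti-inflammatory cytokine, differed by -0.20 ± 0.096 (limma adjusted p 0.342), or -0.11 without both arrays numbered 1. Eomes, a factor of mature natural killer cells that acts downstream of E4bp4, differed by 0.07 ± 0.050. Both genes lay close to background, Il10 at 5.02 to 5.72 and Eomes at 5.24 to 5.59. The 8 natural killer cell markers averaged 5.93 to 6.23 in the knockout and 5.99 to 6.12 in the wild type, a mean of unlike levels. Klrb1c and Gzma lay below the 20th percentile on all arrays and Klrk1 above it on 11. Ncr1, Prf1, Eomes, Tbx21 and Nkg7 lay above it on all 12, with Nkg7, a granule gene, at 10.96 to 12.56.

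The C/EBP proteins, a related bZIP family whose sites resemble D-boxes, held no call at either threshold. All 6 listed were tested, and 0 had an unadjusted p under 0.05, against 14.9% of all transcript clusters in either direction. With only 6 genes nothing is drawn from that 0. Differences ran from -0.16 for Ddit3 to 0.15 for Cebpa, with a median of 0.05. The Ddit3 difference was -0.09 without knockout replicate 3. Cebpa and Cebpb, factors of granulocyte and macrophage fate, were highest on knockout replicate 1, at 9.45 and 7.84. That array had both the high neutrophil and monocyte markers and the low Xist, and the part of either in these values was not tested. Without that array all 6 differences were on the lower side, with a median of -0.04, against 4 higher and 2 lower with it. With Xist as a covariate all 6 were also on the lower side, with a median of -0.03. Cebpg, a partner of other bZIP proteins, differed by -0.04 ± 0.035.

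Among 31 tested genes of other leucine zipper factors, of 32 listed, 0 passed the adjusted threshold and 2 had an unadjusted p under 0.05, both higher in the knockout (6.45%, against 8.47% of all higher at that p). Bach2, a repressor that guides B cell and T cell fate, was at 7.20 to 7.41 in the knockout and 6.80 to 7.13 in the wild type, with no overlap. Its difference was 0.28 ± 0.061, with a two-sided exact permutation p of 0.00216 and a limma adjusted p of 0.148. The B cell markers averaged 6.31 to 6.74 in the knockout and 6.27 to 6.47 in the wild type, and their part in the Bach2 value was not tested. Atf7, a stress-responsive repressor, differed by 0.18 ± 0.052 with a limma adjusted p of 0.201. Atf5 and Xbp1, the secretory factor of plasma cells, differed by 0.16 ± 0.084 and 0.15 ± 0.086, and Atf5 by 0.09 without wild type replicate 3, its lowest array at 7.04. The median difference of the list was 0.01.

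Hlf was set beside other genes of haematopoietic stem cells, since it marks those cells. Of 21 listed, 18 were tested, 0 passed the adjusted threshold, and 10 had an unadjusted p under 0.05, all higher (55.6%, against 8.47% of all higher at that p). With arrays centred on their medians 4 were higher and 1 lower at that p, against 3.53% of all transcript clusters higher and 12.6% lower. This list was also written with earlier results of these data known, so its counts are a description. The median difference was 0.15, beside 0.05 for Hlf, and whether Hlf differs from these genes was not tested. Tek, the angiopoietin receptor, was at 6.89 to 7.09 in the knockout and 6.63 to 6.87 in the wild type, without overlap. Its difference was 0.19 ± 0.050. Esam, an adhesion molecule of stem and endothelial cells, differed by 0.28 ± 0.079, the proto-oncogene Mycn by 0.26 ± 0.079 and Gata2, a factor of stem cells and mast cells, by 0.17 ± 0.052. The limma adjusted p-values of these 4 were 0.184 to 0.214. Megakaryocyte markers, which share Vwf with this list, averaged 9.84 to 10.73 in the knockout and 9.68 to 10.28 in the wild type, and their part in these values was not tested.

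**Figure D4:**
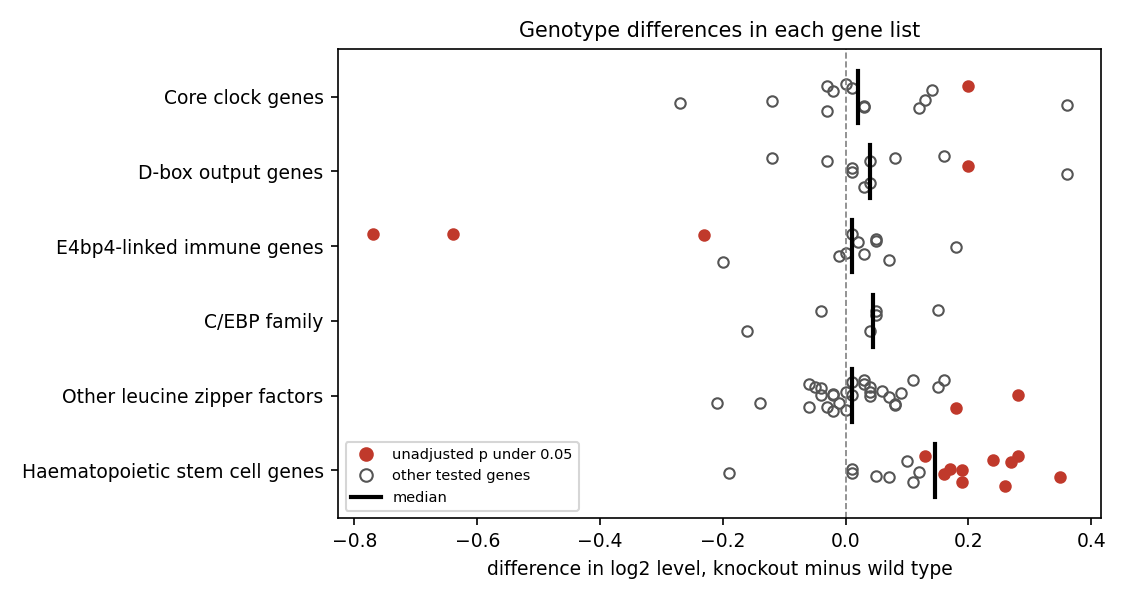
Difference in log2 level, knockout minus wild type, of every tested gene in 6 lists; filled points have an unadjusted limma p under 0.05, open points do not, and the black bar is the list's median. The stem cell genes sit mostly to the right (median 0.15), the immune genes Id2 and Gata3 lie far to the left at -0.77 and -0.64, and the other lists centre between 0.01 and 0.05.

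The genes whose pattern was most like each of these 4 over the 12 arrays were ranked by Pearson's r of genotype-centred values among 17806 other genes. These are the extremes of a long ranking and are given as a description. For Nfil3 the highest were Ost4, a subunit of the oligosaccharyltransferase (0.91), Olfr1239 (0.88) and the lymphatic receptor Flt4 (0.88), and the lowest the ubiquitin ligase Mycbp2 (-0.94), Fcnaos (-0.89) and Samsn1 (-0.87). For Dbp they were Angptl4, a secreted inhibitor of lipoprotein lipase (0.93), Cpped1 (0.91) and Olfr1195 (0.91), and at the other end the cohesin subunit Rad21 (-0.85), Smco3 (-0.83) and Ypel4 (-0.83). Olfr1239 and Olfr1195, olfactory receptor genes, were at 5.08 to 5.44 and 4.70 to 4.96, close to background.

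For Tef the highest were Rhox8 (0.94), Serpine3 (0.93) and Exoc3l (0.91), and the lowest the sorting nexin Snx2 (-0.95), Trip10 (-0.93) and Gm10033 (-0.90). Without knockout replicate 1, the lowest array for Tef, the first of these were 0.86, 0.83 and 0.84. For Hlf the highest were the methionine sulfoxide reductase Msrb3 (0.93), the interleukin 17 receptor chain Il17ra (0.92) and Aldh6a1 (0.90), and the lowest Stpg3 (-0.91), Zmynd8 (-0.90) and Steap1 (-0.89). No gene of the core clock, D-box or stem cell lists was among these 24.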

How the data were processed

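RNA of lineage-depleted marrow was measured on 12 arrays, and groups were taken from the genotype and replicate number in the labels. The deposited values are log2 levels per transcript cluster, made by the authors with GeneSpring GX version 11 and RMA16, per the series design text; the log2 scale was inferred from their range, 3.18 to 14.33. No scanner output was used here, and the steps up to summarisation were kept as deposited. Precision is limited by 6 arrays per genotype.

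The 20th percentile filter of the design text was applied as reaching that percentile on at least 1 array, and kept 29541 of 34760 transcript clusters. Of the 21640 naming 1 gene, 21553 matched a RefSeq gene table (GRCm38.p6), which changed 0 symbols; the one with the highest mean stood for a gene. Genotypes were compared with limma 3.58.1 in R 4.3.3 (lmFit, eBayes, no covariate), tested on simulated data, and single values by two-sided exact permutation (Python 3.11.15, SciPy 1.17.1). In text, named genes were these 4, the up to 4 of lowest p per list, the clock genes compared with Dbp, and the 3 highest and 3 lowest correlations per gene. Eomes, Alas1, Kit, Cd34, Cd2, Itgam, Ly6g, Klrb1c, Klrk1, Ncr1, Prf1, Tbx21, Nkg7, Gzma and Xist were named in addition, after their values were seen. The genes, lists and tests were chosen with earlier results of these data known. Alternatives covered the filter, scaling, variance model, array weights, an Xist covariate, a replicate block and arrays left out.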

Additional observations from a re-analysis of the deposited data

Results flagged for a closer look

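An array was picked out when it lay so far from the other arrays of its group that Dixon's test at the 95% level marked it, which chance does in about 1 in 20 groups. Of 128 sets of 6 values, from 64 genes, 12 met this. Of these, 8 are genes chosen for their likeness to Nfil3, Tef or Hlf over the same arrays and so repeat the array of that gene, and the sets are not independent.

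In wild type replicate 1, Nfil3 was at 7.66, above 6.94 to 7.18 on the other wild type arrays. Genes chosen for their likeness to Nfil3 stood apart on the same array, and that choice used these values: Ost4 at 9.51 and Flt4 at 6.0 were high, and Mycbp2 at 8.72 and Fcnaos at 5.02 low. In knockout replicate 2, the knockout array with the highest Nfil3, Olfr1239 was high at 5.32 and Samsn1 low at 9.24.

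In knockout replicate 1, Xist was at 6.08 against 12.33 to 12.55 on the other knockout arrays, Serpine3, ranked by likeness to Tef, was low at 6.2, and Zmynd8, ranked by likeness to Hlf, low at 10.08. Nr1d1 was low in wild type replicate 6, at 8.15 against 8.4 to 8.49 on the other wild type arrays. That array also had the lowest Dbp. In knockout replicate 5, Eomes was high at 5.59 against 5.34 to 5.41 on the other knockout arrays, all close to background.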

How the results depend on the processing

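Nfil3 stayed lower, and Dbp, Tef and Hlf higher in sign, under all 22 alternatives, and all 4 stayed above the adjusted threshold in limma. Differences ran from -0.77 to -0.56 for Nfil3, 0.06 to 0.12 for Dbp, 0.0025 to 0.08 for Tef and 0.0038 to 0.09 for Hlf, with adjusted p-values of 0.0805 to 0.282, 0.281 to 0.639, 0.413 to 0.986 and 0.588 to 0.989. With single arrays left out these were -0.77 to -0.59, 0.07 to 0.12, 0.03 to 0.08 and 0.0038 to 0.09. The count of transcript clusters at an adjusted p of 0.05 was 5 with array weights, 3 with the Xist covariate and 0 to 4 without single arrays, against 0; none of the 4 genes was among them, and the cause was not tested. Of the 13 correlations 0 passed; 1, Dbp and Nr1d1, passed with values not centred (r = 0.78, adjusted permutation p = 0.0218), and 0 to 1 with single arrays left out. Signs of weak correlations turned with single arrays: r of Nfil3 and Dbp ran from -0.20 to 0.24, and was -0.46 with values not centred. Deviations of same-numbered arrays correlated at -0.033 to 0.462, over 0.1 in 3 of 6 pairs, and 3 of 6 knockout arrays correlated best with their own number; the labels tie the numbers to nothing shared, and pairing was not assumed. With the replicate number as a block 0 transcript clusters were called and the differences, which the balanced design fixes, were -0.68, 0.10, 0.04 and 0.05. Unadjusted limma p-values moved in both directions with the block. They fell for Dbp from 0.0747 to 0.0472, Nr1d1 from 0.0266 to 0.00766 and Pdxk from 0.0525 to 0.0062. Csnk1e fell from 0.0865 to 0.0234 and Nr1d2 from 0.112 to 0.0305, and Id2, Esam and Mycn fell too. The p-values of Nfil3, Gata3, Bach2, Ccl5, Atf7, Tek and Per1 rose, so the block did not strengthen the results as a whole. At an unadjusted p under 0.05 the block gave 3 higher and 1 lower core clock genes, 2 D-box output genes, and 4 higher and 1 lower other leucine zipper factors. The share of all transcript clusters at that p rose as well, from 14.9% to 17.4%, with 9.73% higher and 7.7% lower. The mean of several transcript clusters per gene could not be tried, since each gene had 1. Alternatives for list genes were added after seeing the data. Of transcript clusters with an unadjusted p under 0.05, 57% were higher in the knockout, 46.9% after quantile normalisation and 22% with arrays centred on their medians.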
